A study of Mus musculus with 22 samples.

Results

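The genes Fancf, Gas2, Neto2, Gde1, Mfge8, Ssh3, Rundc3a, Grm6 and Plpp4 carried the histone mark H2AK119ub1 at a gene end in wild-type (WT) intestinal crypts of both mouse lines studied, and no peak of the mark was called there in Pcgf6 knockout (KO) crypts of either line. These 9 genes, of 21883 protein-coding genes tabled, were chosen by that H2AK119ub1 pattern itself, so their H2AK119ub1 values are a description and were not tested. They are among 37 genes that lost the mark in both lines as defined below, and the pattern alone does not set them apart from the rest. Fancf and Gas2 overlap head to head and share 1 H2AK119ub1 peak in each WT list, so the 9 genes stand for 8 loci.

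The measurements were ChIP-seq peak lists, 16 in all, each from 1 library: regions of the genome recovered with an antibody against a protein or histone mark. Pcgf6 KO crypts and WT crypts of the AhCre line were profiled for H2AK119ub1, RING1B and PCGF6, and those of the Villin line for H2AK119ub1, RING1B, CTCF and RAD21. E14 embryonic stem cells (ESC), a WT line, were profiled for PCGF6 and RING1B. The labels give C57BL/6 as the strain background, and the crypts came from small intestine. AhCre is a Cre recombinase under the drug-responsive Cyp1a1 promoter, switched on by BNF, and in the Villin line Cre is switched on by tamoxifen and directed to intestinal epithelium. The series' design text gives male mice aged 8 to 12 weeks and a delay of 7 days after induction, but it describes RNA samples. Whether these values hold for the ChIP crypts, whether WT mice carried Cre, how many mice were pooled and what share of cells lost Pcgf6 is not given in the sources used here. Peak lists do not measure expression, so the cell type could not be checked against marker genes.

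Every group had 1 library, so no value below has a replicate error and no difference between KO and WT was tested. Each peak has a score, the −log10 of a p or q value (which of them was not stated) that the authors' peak caller gave it, and no list holds a score under 10. The lists held 1662 to 32651 peaks and their read depth is unknown. No common scale joins scores of different libraries, and a lower score in KO than in WT crypts is therefore not a measured decrease. Fewer cells with a peak and less signal per cell cannot be told apart in these bulk samples. A peak was assigned to a gene if it came within 1 kb of the start or the end of the gene. A peak was called lost where WT crypts had one in that window, KO crypts had none, and none of the WT peaks there touched a KO peak. The targeted gene Pcgf6 itself had no PCGF6 peak in AhCre KO crypts, against a peak of score 20.8 in AhCre WT crypts. That checks antibody signal at the locus rather than the deletion.

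H2AK119ub1 is a single ubiquitin on a lysine in the tail of histone H2A, placed by Polycomb repressive complex 1 (PRC1). RING1B is a catalytic subunit of PRC1. PRC1 comes in variants, each built on a different PCGF protein. The PCGF6 variant, PRC1.6, also holds the DNA-binding proteins MGA with MAX and E2F6 with its partner DP1, and is known for repressing germline genes in stem cells. CTCF and the cohesin subunit RAD21 organise chromatin loops.

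The start regions of 6 of the genes are shown because they separate the loci by sequence and by which proteins were called over them. Each holds 250 bases before and 50 after an annotated start site (RefSeq, GRCm38.p6), written in the direction of transcription, with CpG dinucleotides in capitals. The regions are chr7:51862218-51862517 (minus strand, Fancf), chr7:51861765-51862064 (plus strand, Gas2), chr8:85700875-85701174 (minus strand, Neto2), chr7:118705689-118705988 (minus strand, Gde1), chr7:79149011-79149310 (minus strand, Mfge8) and chr11:50850435-50850734 (plus strand, Grm6).
Fancf: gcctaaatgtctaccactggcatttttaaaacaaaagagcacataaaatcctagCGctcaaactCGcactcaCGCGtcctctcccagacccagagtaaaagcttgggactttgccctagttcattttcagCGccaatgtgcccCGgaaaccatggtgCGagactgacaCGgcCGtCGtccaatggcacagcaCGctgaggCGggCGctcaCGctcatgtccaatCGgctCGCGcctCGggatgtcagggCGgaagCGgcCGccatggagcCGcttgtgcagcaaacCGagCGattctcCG
Gas2: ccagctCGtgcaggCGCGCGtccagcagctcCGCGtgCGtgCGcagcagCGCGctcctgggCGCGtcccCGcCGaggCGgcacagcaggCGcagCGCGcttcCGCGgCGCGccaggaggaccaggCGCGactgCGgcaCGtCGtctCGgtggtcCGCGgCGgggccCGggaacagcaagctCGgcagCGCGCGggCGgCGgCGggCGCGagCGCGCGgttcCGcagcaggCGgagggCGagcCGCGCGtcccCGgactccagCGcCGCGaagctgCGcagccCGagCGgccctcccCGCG
Neto2: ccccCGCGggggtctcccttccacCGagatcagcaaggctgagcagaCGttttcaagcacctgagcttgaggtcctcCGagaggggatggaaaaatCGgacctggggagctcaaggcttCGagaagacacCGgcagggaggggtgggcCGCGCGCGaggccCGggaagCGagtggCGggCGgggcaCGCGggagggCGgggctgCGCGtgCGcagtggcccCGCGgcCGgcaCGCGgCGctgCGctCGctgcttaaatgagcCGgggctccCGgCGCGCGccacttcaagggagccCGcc
Gde1: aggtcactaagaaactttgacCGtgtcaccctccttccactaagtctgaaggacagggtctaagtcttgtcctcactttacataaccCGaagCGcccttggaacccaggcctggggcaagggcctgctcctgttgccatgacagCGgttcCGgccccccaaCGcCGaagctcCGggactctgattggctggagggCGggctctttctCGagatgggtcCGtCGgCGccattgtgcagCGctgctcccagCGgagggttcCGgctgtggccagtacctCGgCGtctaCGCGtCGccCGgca
Mfge8: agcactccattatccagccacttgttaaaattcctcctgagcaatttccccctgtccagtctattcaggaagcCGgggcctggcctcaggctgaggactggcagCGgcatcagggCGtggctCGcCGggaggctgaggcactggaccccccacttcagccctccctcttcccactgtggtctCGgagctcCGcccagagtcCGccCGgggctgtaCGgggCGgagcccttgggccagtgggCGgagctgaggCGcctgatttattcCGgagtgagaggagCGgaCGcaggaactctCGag
Grm6: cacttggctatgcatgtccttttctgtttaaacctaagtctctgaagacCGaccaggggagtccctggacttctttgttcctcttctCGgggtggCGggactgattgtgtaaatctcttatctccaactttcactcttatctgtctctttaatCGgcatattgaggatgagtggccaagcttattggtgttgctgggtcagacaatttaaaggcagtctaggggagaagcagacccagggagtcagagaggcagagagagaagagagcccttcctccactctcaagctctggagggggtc

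In these regions of 300 bp, Gas2 had 59 CpG dinucleotides, Neto2 36, Plpp4 31, Fancf 25, Gde1 22, Ssh3 19, Mfge8 17 and Grm6 4. The median over 17491 protein-coding genes with an entry, 1 region a gene, was 13 with quartiles of 4 and 24. The Gas2 region, which lies inside Fancf, was therefore denser than 99.9% of them, and the Grm6 region stood at the lower quartile. No E-box (CACGTG), E2F motif (GCGGGAA) or T-box motif (GGTGTGA) was found on either strand in the 8 regions with an entry, whereas 7.91%, 6.01% and 3.68% of the 17491 regions hold these motifs in that order. That says only that these letters are not in these windows.

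H2AK119ub1 was found at the 9 genes as peaks of low to middling score in WT crypts. Scores ran from 11.4 to 15.6 in AhCre WT crypts and from 10.5 to 14.6 in Villin WT crypts, against list medians of 13.9 and 13.2. They lay on both sides of the medians, and the weakest of them lay just above the lowest score the lists hold. Peak widths ran from 407 to 1903 bp (median 803.5) in AhCre WT crypts and from 466 to 1464 bp (median 1083) in Villin WT crypts, against list medians of 1428 and 1140 bp. Over all genes, 37 lost the mark in both lines, which is 0.169% of those tabled and 1.8% of the 2053 genes with the mark in both WT lists. That count was 21 with a minimum score of 12, and 105 where a KO peak had to cover 50% of the WT peak to count as shared. Counted in each line whatever the other showed, loss was found at 12.9% of 3509 marked genes in AhCre and 29.3% of 2266 marked genes in Villin crypts. These counts include the 37 genes. Since these values chose the genes, nothing is read from their count. The AhCre lists held 16039 peaks in KO and 13175 in WT crypts, and the Villin lists 5492 in KO and 6219 in WT. With lists of equal length, 6 of the 9 genes lost the mark in both lines, without Fancf, Gas2 and Ssh3. The Villin WT score of Fancf, Gas2 and Ssh3 was tied over 629 peaks from rank 5228, and the cut at 5492 fell among them. Ties were broken by chromosome name and position, so signal did not decide which of the tied peaks dropped out. With a minimum score of 12 in every list, 3 did (Mfge8, Grm6 and Gde1).

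**Figure D1:**
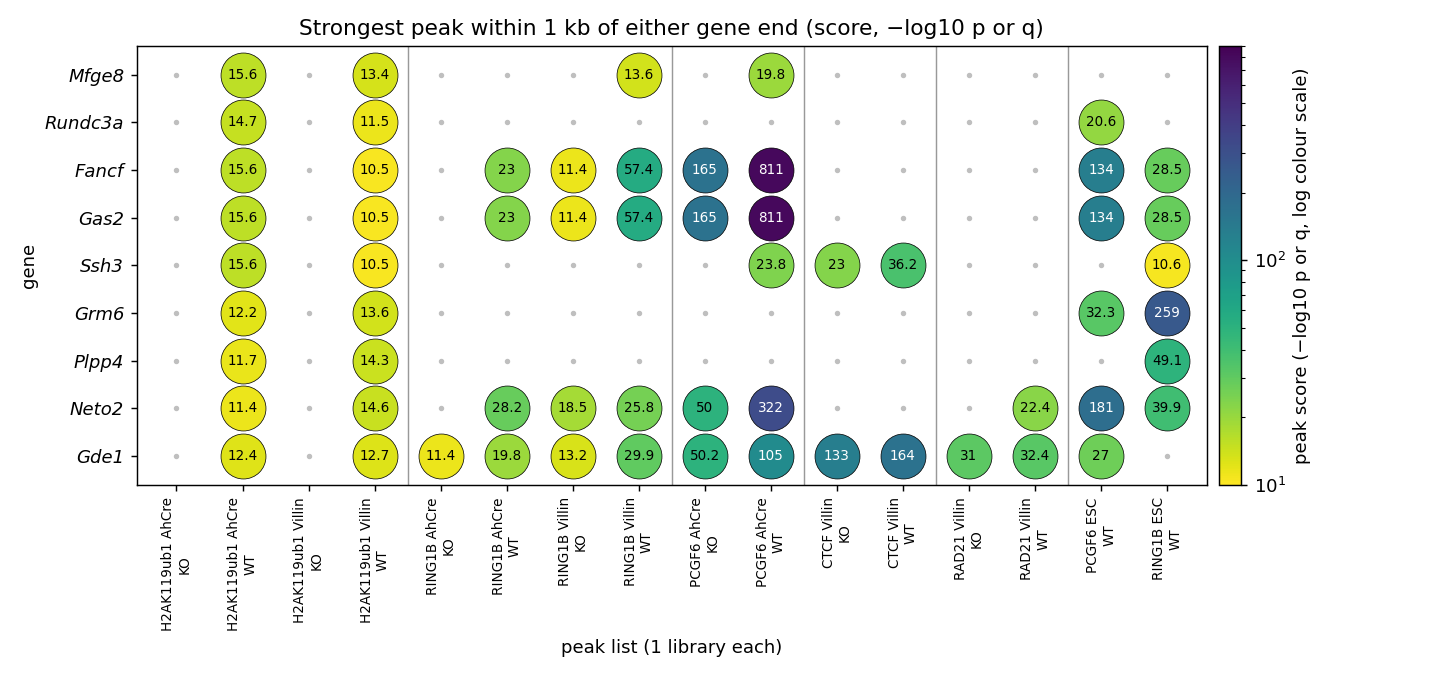
Score of the strongest peak within 1 kb of either gene end for the 9 genes (rows) in the 16 peak lists (columns, 1 library each, KO left of WT), with grey dots where no peak was called. The H2AK119ub1 columns are empty in KO and hold scores of 10.5 to 15.6 in WT, while the rows of Fancf, Gas2, Neto2 and Gde1 hold most of the PCGF6 and RING1B peaks.

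Loss of the mark went with score over all genes. Of genes whose strongest WT score was 10 to 12, 41.3% lost the mark in AhCre and 56.1% in Villin crypts, and of those scoring 16 to 20, 5.29% and 15.4% did. At scores of 30 or more, 0 of 643 genes lost it in AhCre and 0 of 137 in Villin crypts. Of the 256 genes whose scores fell within the ranges of the 9 genes in both WT lists, 10.2% lost the mark in AhCre crypts, 60.9% in Villin crypts and 9.77% in both. Those 256 genes include the 9.

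**Figure D2:**
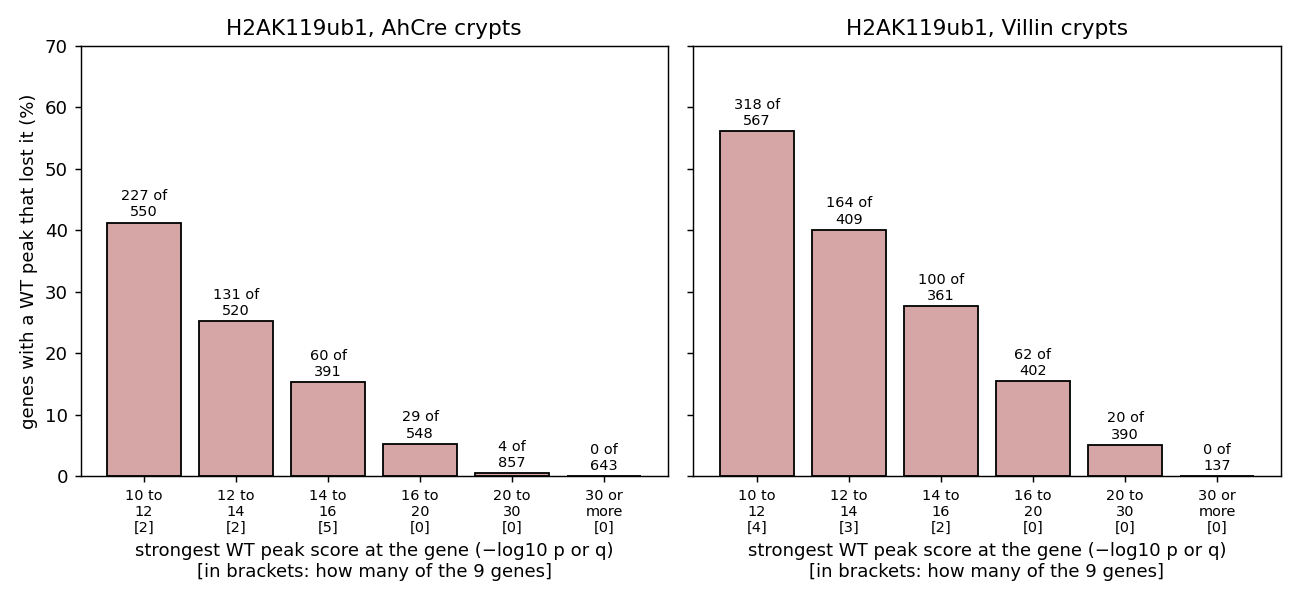
Share of genes with a WT H2AK119ub1 peak that lost it (vertical axis, %) by the strongest WT score at the gene (horizontal axis), with counts above the bars and the number of the 9 genes in brackets, for AhCre (left) and Villin (right) crypts. The 9 genes sit in the bins under 16, where 15.3% to 41.3% of genes lost the mark in AhCre and 27.7% to 56.1% in Villin crypts.

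Among the 37 genes, ordered by the mean rank of their WT scores over both lines, the 9 stood in the first 15 places together with 6 others (Tert, Gm38821, Pfn2, Krt15, Tgfbi and Pwwp2b, named after their values were seen). Mfge8 led with scores of 15.6 in AhCre and 13.4 in Villin WT crypts. Ssh3, level with Fancf, Gas2 and Pwwp2b at the lower end, had 15.6 and 10.5. The next genes down were Car4 (11.4 and 12.5), Tac4 (10.6 and 14.2) and Olfr461 (14.1 and 10.5), so no gap in score separates the genes inside from those outside. Scores came in steps: the 13175 AhCre WT peaks held 1527 distinct scores and the 6219 Villin WT peaks held 714. The score of 10.5 at Fancf, Gas2 and Ssh3 was the score of 629 Villin WT peaks, and their AhCre score of 15.6 that of 289.

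Fancf encodes an adaptor of the Fanconi anaemia core complex, which acts in the repair of DNA crosslinks, and Gas2 encodes a protein that links actin and microtubules. Their shared H2AK119ub1 peak lay at chr7:51861169-51861587 in AhCre WT crypts (score 15.6) and at chr7:51861112-51861577 in Villin WT crypts (score 10.5). In AhCre WT crypts it lay 680 to 1098 bp inside Fancf, counted from its start, and upstream of the Gas2 start. In KO crypts the nearest H2AK119ub1 peak was 173128 bp away in AhCre and 1948277 bp away in Villin crypts.

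Neto2 encodes an auxiliary subunit of kainate-type glutamate receptors. Its peak lay upstream of the start in both WT lists, at chr8:85701288-85701694 in AhCre crypts (score 11.4) and at chr8:85701187-85702650 in Villin crypts (score 14.6). Gde1 encodes a phosphodiesterase that cleaves glycerophosphodiesters such as glycerophosphoinositol. Its peak covered the start site in both WT lists, at chr7:118705103-118705793 in AhCre crypts (score 12.4) and at chr7:118705161-118706365 in Villin crypts (score 12.7). The nearest KO peak of the mark was at least 90903 bp from both loci in each line.

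Mfge8 encodes lactadherin, a secreted glycoprotein that binds phosphatidylserine on dying cells. The lost peak lay 447 to 1028 bp inside the gene in AhCre WT crypts (chr7:79148032-79148613, score 15.6) and 43 to 1024 bp inside it in Villin WT crypts (chr7:79148036-79149017, score 13.4). Farther inside the gene, AhCre crypts had overlapping peaks of the mark in both genotypes, with score 19.1 in KO (2216 bp wide) and 16.5 in WT (4194 bp wide). The AhCre locus was therefore not cleared of the mark. In Villin crypts no peak was called inside or within 5 kb of Mfge8 in KO, and in WT there was the 1 that was lost.

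Ssh3 encodes a member of the slingshot family of phosphatases, which act on the actin regulator cofilin. Its peak lay upstream of the start, at chr19:4269772-4270729 in AhCre WT crypts (score 15.6) and at chr19:4269723-4270232 in Villin WT crypts (score 10.5). In AhCre KO crypts a peak of score 12.2 began 178 bp beyond the end of the WT peak, and with a window of 2 kb Ssh3 would not count as having lost the mark. The same WT peak lies at the end of the neighbouring gene Ankrd13d, which counted as having lost the mark in Villin crypts. In AhCre crypts Ankrd13d did not count so, as the KO peak of score 12.2 fell within 1 kb of its end. Ssh3 is thus the gene where the loss depended most closely on position.

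Rundc3a encodes a RUN domain protein that binds the small GTPase RAP2. Its peak covered 1 gene end, the one with the lower coordinate, in both WT lists, at chr11:102393021-102394511 in AhCre crypts (score 14.7) and chr11:102392707-102394056 in Villin crypts (score 11.5). A peak inside the gene was called in both genotypes, with score 14.7 in KO and 11.4 in WT AhCre crypts, and 12.2 in KO and 14.5 in WT Villin crypts. In the KO lists the mark was therefore not called at that gene end and was called inside the gene.

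Grm6 encodes the metabotropic glutamate receptor mGluR6, known from retinal ON bipolar cells, and Plpp4 encodes a phospholipid phosphatase. At Grm6 the mark covered the start site in both WT lists, at chr11:50849916-50851818 in AhCre crypts (score 12.2) and chr11:50850609-50851737 in Villin crypts (score 13.6). At Plpp4 it lay upstream of the start, at chr7:129255675-129256590 in AhCre WT crypts (score 11.7) and chr7:129255492-129256574 in Villin WT crypts (score 14.3), with another Villin WT peak of score 10.5 just past the start. In KO crypts the nearest peak was at least 397412 bp from these peaks in each line.

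**Figure D3:**
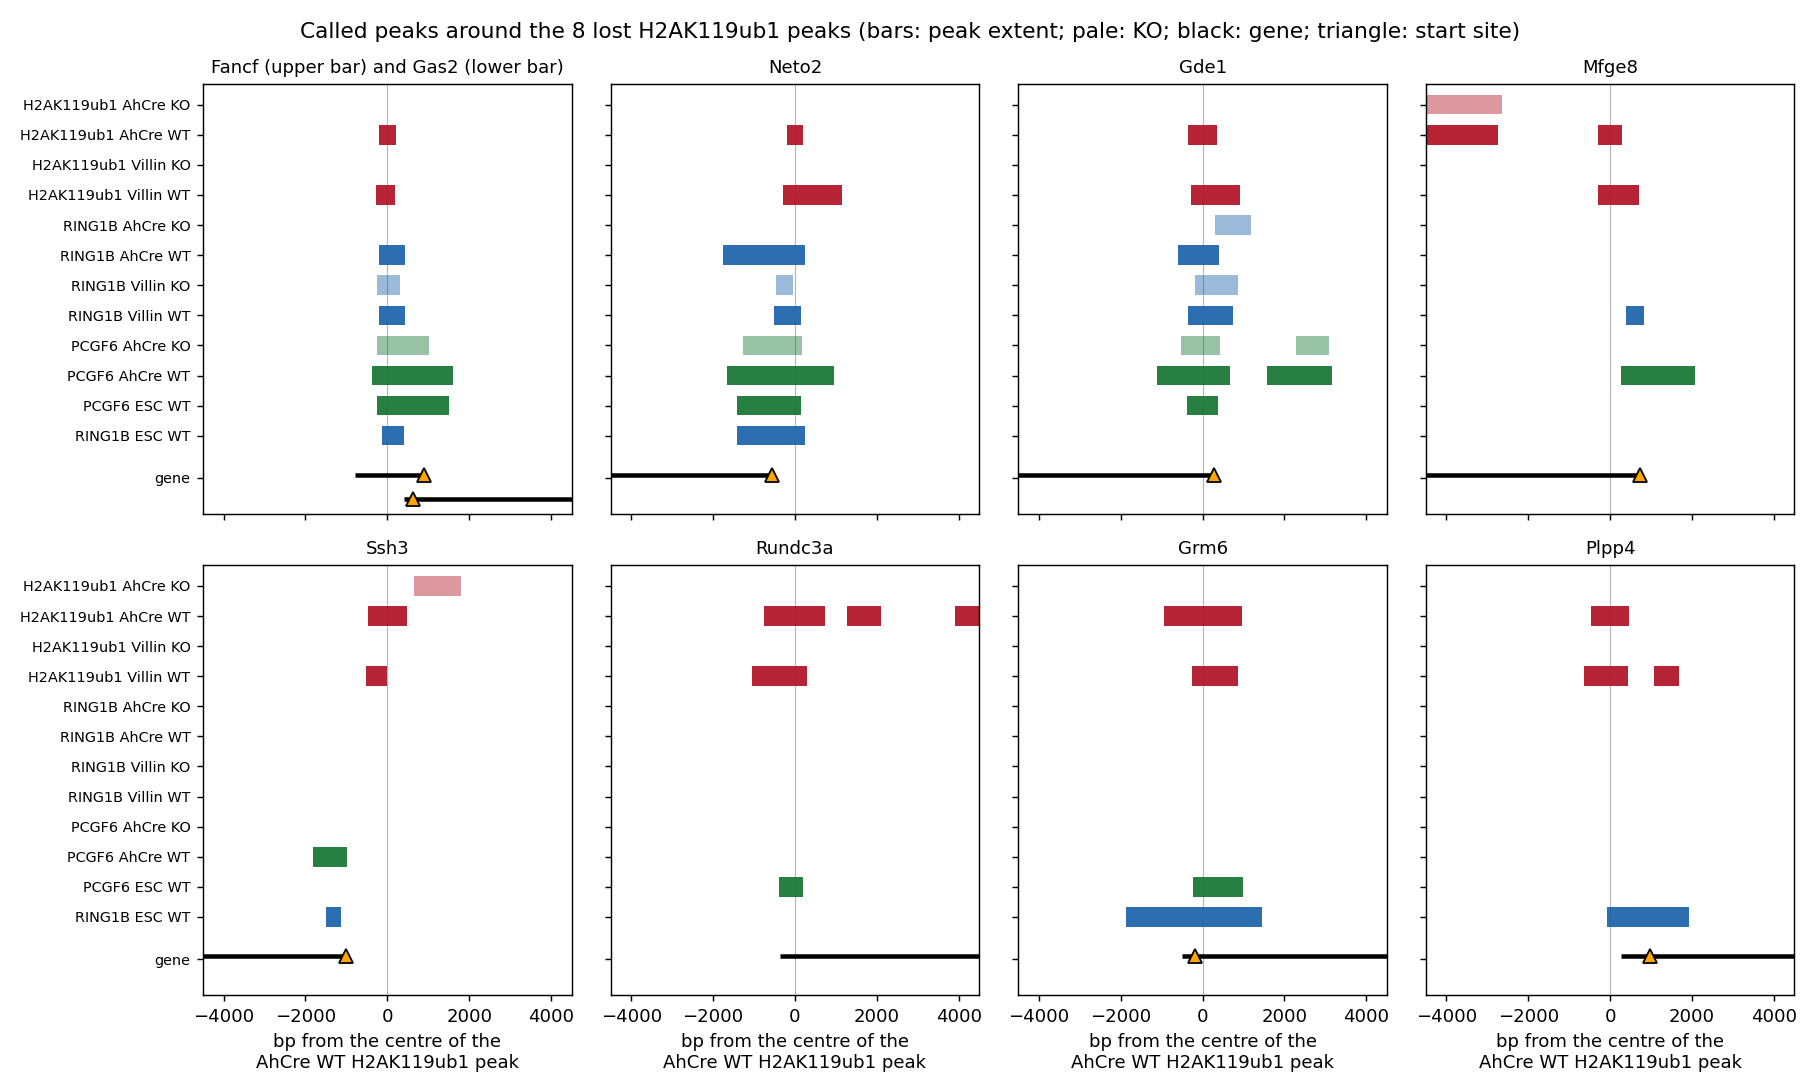
Extent of every called peak (bars, KO pale and above WT) around the 8 loci, in bp from the centre of the AhCre WT H2AK119ub1 peak, with genes in black and start sites as triangles (Rundc3a has no start site in the table used). H2AK119ub1 lies beside or within PCGF6 and RING1B peaks at Fancf with Gas2, Neto2 and Gde1, and without them in crypts at Rundc3a, Grm6 and Plpp4.

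PCGF6, which had no part in choosing the genes, was called in AhCre WT crypts at 6 of them: Mfge8, Fancf, Gas2, Ssh3, Neto2 and Gde1. Counting the shared peak once, that is 5 of 8 loci. The share over all genes was 39.9%, and over genes with H2AK119ub1 in both WT lists it was 41.9%. In KO crypts 4 of the 9 genes, or 3 of the 8 loci, still had a PCGF6 peak. The share was 10.7% over those marked genes and 13.7% over all genes. Mfge8 and Ssh3 lost theirs, as did 64.4% of all genes with a WT peak and 71.9% of the marked ones. No test was made of these counts, and nothing in them is called particular to the 9 genes. The PCGF6 list was shorter in KO (4779 peaks) than in WT crypts (17163 peaks), and with the WT list limited to its 4779 strongest peaks neither Mfge8 nor Ssh3 counts as having lost PCGF6.

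The PCGF6 peaks at Fancf with Gas2 and at Neto2 were among the strongest of the WT list. Over both the Fancf and the Gas2 start sites the score was 165 in KO crypts and 811 in WT crypts, where it ranked 14 of 17163 peaks. At Neto2 it was 49.96 in KO and 322 in WT crypts, where it ranked 75. At Gde1 it was 50.2 in KO and 105 in WT crypts. These 3 peaks covered a start site in both genotypes and kept a KO counterpart, as did 98.3% of WT peaks scoring 100 to 300 and 100% of the 89 scoring 300 or more.

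Lower PCGF6 scores, near the WT list median of 18.1, stood at the other pair of genes. At Mfge8 no peak was called in KO crypts, against a peak of score 19.8 in WT crypts that overlapped the H2AK119ub1 peak by 22 bp. At Ssh3 none was called in KO, against one of score 23.8 in WT crypts that ended 514 bp from the H2AK119ub1 peak. Of WT PCGF6 peaks scoring 10 to 20, 6.74% overlapped a KO peak, and of those scoring 20 to 50, 40.5% did. The 3 other loci had no PCGF6 peak within 1 kb: the nearest lay 4210 bp outside Rundc3a and 8856 bp outside Grm6, and inside Plpp4 a peak of score 26.9 lay far from both ends.

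RING1B was called at 4 of the 9 genes in AhCre WT crypts (Fancf, Gas2, Neto2 and Gde1) and at 5 in Villin WT crypts, where Mfge8 was added. Among genes with H2AK119ub1 in both WT lists the shares were 45.7% and 58.4%, and over all genes 7.73% and 14.2%. KO crypts had it at 1 of the 9 genes in AhCre and at 4 in Villin. The KO shares were 32.8% and 44.4% over those marked genes, and 4.89% and 7.61% over all genes. Loss was thus counted at 3 of 4 genes in AhCre crypts, where 44.7% of all genes with a WT peak and 33.1% of the marked ones lost it. In Villin crypts it was counted at 1 of 5 genes, Mfge8, where the shares were 53.7% and 28.2%. Fancf and Gas2 rest on 1 peak, so the AhCre count is 2 of 3 loci. The difference between the lines was not tested. RING1B lists were also shorter in KO crypts, with 1662 peaks in KO and 2368 in WT of AhCre, and 2464 in KO and 4403 in WT of Villin. With lists of equal length the AhCre count was again 3 genes and the Villin count was 0. With a minimum score of 12 the AhCre count was 4, with Gde1 added, and the Villin count was 3 (Mfge8, Fancf and Gas2). Where a KO peak had to cover 50% of the WT peak, the AhCre count was 4, again with Gde1, and the Villin count was 1.

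At Fancf and Gas2 no RING1B peak was called in AhCre KO crypts, against a score of 23.0 in WT. In Villin crypts the score there was 11.4 in KO and 57.4 in WT. At Neto2 none was called in AhCre KO crypts, against 28.2 in WT, and in Villin crypts the scores were 18.5 in KO and 25.8 in WT. The RING1B peaks over Fancf shared 406 bp with the AhCre and 404 bp with the Villin H2AK119ub1 peak of the same WT crypts.

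Gde1 was the gene with RING1B in all 4 crypt lists. Its scores were 11.4 in KO and 19.8 in WT AhCre crypts, and 13.2 in KO and 29.9 in WT Villin crypts. The AhCre KO peak lay upstream of the start site, 15 bp from it, whereas the AhCre WT peak covered the start site. Mfge8 had no RING1B in either AhCre list, and in Villin crypts no peak was called in KO, against a score of 13.6 in WT. Rundc3a, Ssh3, Grm6 and Plpp4 had no RING1B peak within 1 kb of an end in any crypt list, although H2AK119ub1 was called there in both WT lists. Where both genotypes had a RING1B peak, the KO score was the lower at each of these genes, and scores of different libraries are not on 1 scale.

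CTCF and RAD21, profiled in Villin crypts, were each called at 2 of the 9 genes in WT, close to their shares over all genes. CTCF was called at Ssh3 and Gde1 in both genotypes, or 22.2% of the 9 genes, against 39.1% of the marked genes and 25.5% of all genes. Of these 2 genes 0 lost it, against 12% of all genes with CTCF in WT. At Ssh3 the score was 23.0 in KO and 36.2 in WT, and at Gde1 133 in KO and 164 in WT. Both peaks lay at the far end of the gene, away from the H2AK119ub1 peak. Inside Neto2 a stronger CTCF peak lay just beyond the window, 1439 bp from a gene end in WT (score 267 in KO, 256 in WT). With a window of 2 kb, CTCF was called in WT at 3 of the 9 genes.

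RAD21 was called in WT at Neto2 and Gde1, against 28.3% of the marked genes and 22.2% of all genes. At Gde1 it had a score of 31.0 in KO and 32.4 in WT, at the same end as CTCF. At Neto2 no RAD21 peak was called within 1 kb of an end in KO, against a score of 22.4 in WT, a loss that 41.1% of genes with RAD21 in WT shared. The next RAD21 peak inside Neto2 lay 709 bp from it and was called in both genotypes (score 105 in KO, 92.9 in WT).

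In ESC, PCGF6 was called at 6 of the 9 genes and RING1B also at 6, against 50.5% and 69% of the marked genes and 22.7% and 17.8% of all genes. The strongest PCGF6 scores were again at Neto2 (181) and at Fancf with Gas2 (134), followed by Grm6 (32.3), Gde1 (27.0) and Rundc3a (20.6). RING1B was strongest at Grm6, with a score of 259 over 3324 bp, ahead of Plpp4 (49.1), Neto2 (39.9), Fancf with Gas2 (28.5) and Ssh3 (10.6). Grm6 and Plpp4, which had no RING1B in any crypt list, thus held it over their start sites in ESC. Mfge8 had neither protein in ESC. ESC and crypts differ in cell type, culture and library, which cannot be told apart here.

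**Figure D4:**
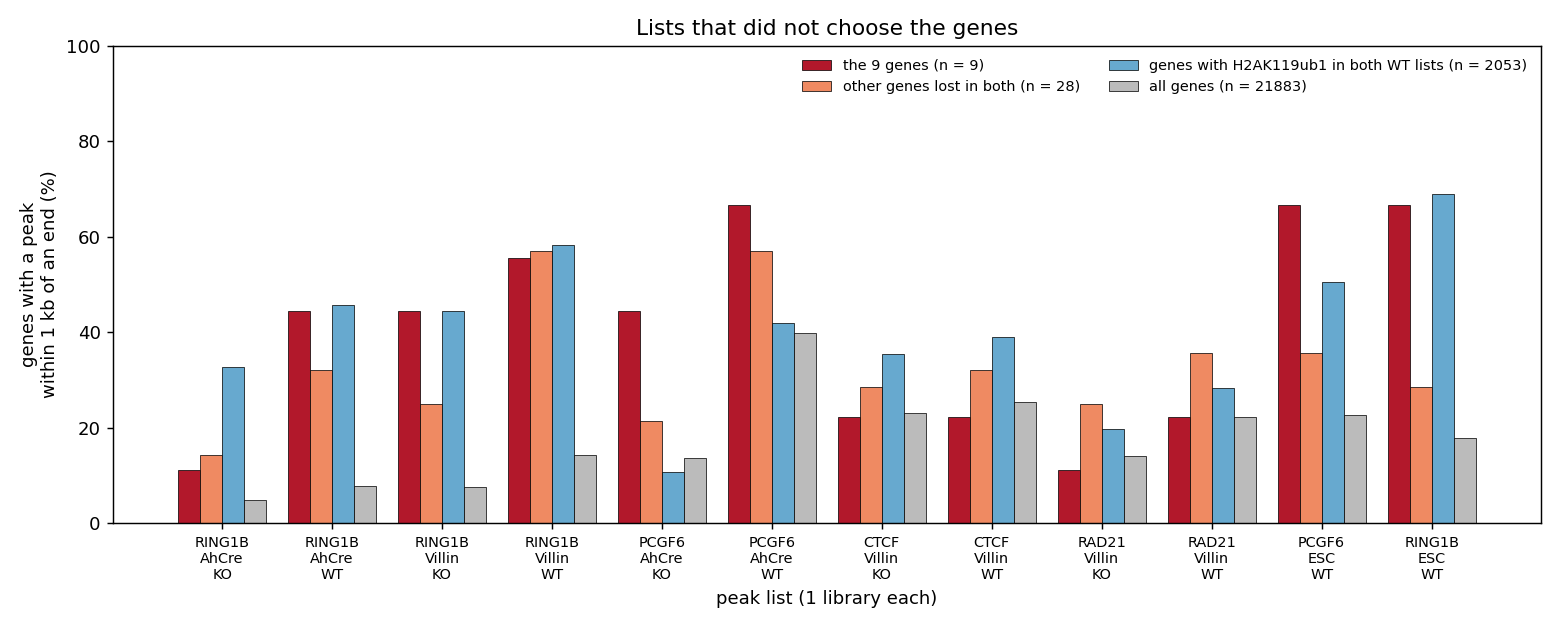
Share of genes with a peak within 1 kb of an end (vertical axis, %) in the 12 lists that did not choose the genes (horizontal axis, KO left of WT), for the 9 genes, the 28 other genes that lost H2AK119ub1 in both lines, the 2053 genes marked in both WT lists and all 21883 genes. The PCGF6 bars of AhCre KO crypts read 44.4% for the 9 genes, 21.4% for the 28, 10.7% for the 2053 and 13.7% for all genes. The 9 genes hold 3 peaks there.

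Across the 16 lists the genes differed in how many held a peak. Gde1 had a peak in 13 lists, Neto2 in 10, Fancf and Gas2 in 9, Ssh3 in 6, Mfge8 and Grm6 in 4, and Rundc3a and Plpp4 in 3. The most alike pairs from separate loci agreed in 15 lists (Fancf and Neto2, Rundc3a and Grm6, Grm6 and Plpp4), and the least alike, Plpp4 and Gde1, in 4. The 4 H2AK119ub1 lists are among the 16 and agree in every such pair, and in those that follow, by the choice of genes. Among the 28 other genes that lost the mark in both lines, 16 had PCGF6 in WT crypts, of which 10 lost it. The gene most like one of the 9 was Pfn2, a profilin gene, whose presence or absence of a peak matched Rundc3a in 16 of 16 lists. Gm38821, the keratin gene Krt15 and the tachykinin gene Tac4 matched Rundc3a and Plpp4 in 15, and Car4, a carbonic anhydrase gene, matched Fancf and Gas2 in 15. Further genes, lower in WT score, tied with them at 15. Apart from the H2AK119ub1 lists, the match of Pfn2 with Rundc3a rests on 1 shared peak, of PCGF6 in ESC, and on shared absence. Gm38821, Krt15 and Tac4 had no peak in any of the other lists, so their matches rest on shared absence alone.

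PRC1.6 subunit genes, paralogues of the 9 genes and other Fanconi core genes were counted too, without a test. Over all genes, H2AK119ub1 was called at 16% in AhCre WT and 10.4% in Villin WT crypts, and at 2053 of 21883 in both. Of genes so marked, 12.9% lost it in AhCre and 29.3% in Villin crypts. PCGF6 was called in AhCre WT crypts at 39.9% of all genes, and 64.4% of those lost it. Of 14 PRC1.6 subunit genes, 14 had PCGF6 in WT crypts, of which 7 lost it. H2AK119ub1 was lost at 2 of the 3 marked in AhCre WT crypts and at 2 of the 2 marked in Villin WT crypts. It was lost in both lines at 1, Mga (11.8 in AhCre and 10.5 in Villin WT crypts). E2f6 lost it in AhCre crypts (WT score 12.5) and Rybp in Villin crypts (WT score 10.3). Of 24 paralogues of the 9 genes, 4 had the mark in both WT lists (Gas2l1, Grm4, Neto1 and Gdpd5), 0 of the 5 marked in AhCre WT crypts lost it, and 4 of the 7 marked in Villin WT crypts did (Grm2, Neto1, Gdpd2 and Gdpd5). The paralogue Grm4, another glutamate receptor gene, had scores of 38.2 in KO and 43.1 in WT AhCre crypts and 25.5 in KO and 17.9 in WT Villin crypts. Of the 10 other Fanconi core genes, 0 had the mark in both WT lists and 6 had PCGF6 in WT crypts, of which 5 lost it.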

How the data were processed

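The deposited values are peak lists, 1 per ChIP library, with −log10 scores that the authors' peak caller gave each peak. Tools in the submitters' processing notes are MACS2 2.1.1 and Bowtie, in versions 1.1.2 and 1.2.2. The builds listed there are hg38, dm6 and mm10, with no roles, and peak coordinates are those of mm10. Per the labels, a WT input was the reference for peak calling, and H2AK119ub1 chromatin held 5% Drosophila S2 chromatin. No spike count was used, and the 6 input samples have no list here. Other settings are not given in the sources used here.

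Chromosomes 1 to 19, X and Y were kept, and BED starts were made 1-based. Genes were 21883 protein-coding symbols of the GRCm38.p6 RefSeq table, which has no exon annotation, and 8 of the 9 genes matched its start-region table. Peaks were matched to genes within 1 kb of either end, with 1 bp of overlap between KO and WT peaks. Overlap counts of 4 pairs of lists equalled those of bedtools, with 0 differing. On simulated data, a copy of a list with 200 peaks removed, 0 of 21883 genes were called wrongly. That checks the code only, and how accurately loss is called between libraries was not assessed. The named genes were the 9, genes within 3 places of the lowest of them, up to 5 with the most similar presence over the lists, genes sharing a peak, and list genes marked in both WT lists or losing the mark. The 9 genes and the lists were chosen with earlier results of these data known. In 1 description line the ESC samples exchange PCGF6 and RING1B, and titles and antibody tags were used. Python 3.11.15, numpy 2.4.6, pandas 2.3.3 and matplotlib 3.10.9 were used.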

Additional observations from a re-analysis of the deposited data

How the results depend on the processing

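Of 67 alternative values for 14 counts, 60 stayed within 1.5 times the reported count, a limit that a change from 9 to 6 genes meets. Calling loss from the window alone, or asking a KO peak to cover 50% of a WT peak, cannot lower a count of loss. The H2AK119ub1 count of the 9 genes was therefore fixed at 9 in those settings. With a minimum score of 12 in each list, H2AK119ub1 loss in both lines held at 3 of the 9 genes (Mfge8, Grm6 and Gde1) and at 21 genes in all, and RING1B loss in Villin crypts was counted at 3 genes, since the KO peak of Fancf and Gas2 drops out. Asking a KO peak to cover 50% of a WT peak gave 105 genes that lost H2AK119ub1 in both lines. With KO and WT lists cut to equal length, RING1B loss in Villin crypts and PCGF6 loss in AhCre crypts were each counted at 0 of the 9 genes, because the WT peaks of Mfge8 and Ssh3 rank below the length of the KO list. With a window of 2 kb, RAD21 loss was counted at 0 genes, and H2AK119ub1 loss in both lines held at 7 of the 9, without Ssh3 and Rundc3a. With a window of 500 bp it held at 7, without Fancf and Ssh3. Counting the shared peak of Fancf and Gas2 once, an alternative chosen after seeing the data, gave 8 loci. No paired analysis was possible because these results are counts of called and uncalled peaks that come from no test, and the lines share no replicate numbers beyond the single library of each group. Depth is unknown, so a peak missing from a KO list was not called at a score of 10, which is not the same as absent.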
